A study of Danio rerio with 6 samples.

Results

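The SLC4, SLC9, SLC12 and SLC26 families hold the ion exchangers and cotransporters that move bicarbonate, protons, sodium, potassium and chloride across cell membranes. They were followed here in cells of adult zebrafish that the sample titles name thyroid follicular cells (TFC), sorted by the brightness of a pax2a reporter. Members were all rows of the gene table whose symbol begins with slc4a, slc9a, slc12a or slc26a and a number, with 1 SLC26 gene left aside. The rule gave 46 of 32059 rows: 13 in SLC4, 10 in SLC9, 13 in SLC12 and 10 in SLC26. Of these, 44 are transporter genes and 2 encode partner proteins whose symbols carry the name of the transporter they bind, slc4a1ap and slc9a3r1a.

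RNA from 3 pax2a-high (mKO2-High) and 3 pax2a-low (mKO2-Low) libraries was sequenced. All 6 came from zebrafish aged 5 mpf (months post fertilization) that carried Tg(tg:nls-EGFP) together with the allele pax2a:mKO2-Knock-in, so both groups had both. The transgene places nuclear EGFP under the thyroglobulin promoter, and the knock-in reports the thyroid transcription factor pax2a by the orange fluorescent protein mKO2. The comparison asks how cells sorted as bright for pax2a differ from cells sorted as dim for it. Nothing in the labels says whether libraries of a group came from separate animals or sorts, so p-values measure only the spread between these libraries, which may be technical.

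As background, members of SLC4 exchange chloride for bicarbonate or carry bicarbonate together with sodium, and members of SLC9 exchange sodium for protons. Most SLC12 members carry chloride together with sodium, potassium or both, and are switched by the WNK kinases. SLC26 members exchange chloride, bicarbonate, sulfate, oxalate or iodide, and thyroid cells use such carriers to set cell pH, volume and anion transport. In zebrafish skin and gill, ionocytes use several of the same families to take up salt and secrete acid.

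The deposited counts summed to 18014891, 20392697 and 35403210 in pax2a-high libraries 1, 2 and 3, against 6053741, 7189239 and 10932845 in pax2a-low libraries 1, 2 and 3. Levels below are given as CPM, the counts divided by the scaled library size and multiplied by 1000000, and 3 counts are worth 0.0842 to 0.183 CPM across pax2a-high libraries, against 0.234 to 0.578 CPM in pax2a-low libraries, a limit that covers counting error only. Mitochondrially encoded genes took 0.7995% to 1.168% of counts across pax2a-high libraries, against 24.15% to 48.98% in pax2a-low libraries. Thyroglobulin (tg), which defines the tissue, took 15.3% to 24.0% of counts across pax2a-high libraries, against 0.398% to 3.80% in pax2a-low libraries. The reporter's own gene, pax2a, stood at 303, 431 and 579 CPM in pax2a-high libraries, against 2.31, 1.24 and 157 CPM in pax2a-low libraries. By pax2a, pax2a-low 3 thus stood apart from the other pax2a-low libraries. By mKO2 it did not, with 4.52, 33.9 and 18.4 CPM in pax2a-high libraries, against 0, 0.744 and 0 CPM in pax2a-low libraries. EGFP had 250, 262 and 411 CPM in pax2a-high libraries, against 26.6, 46.2 and 175 CPM in pax2a-low libraries. Of the thyroid marker list, 9 of 10 genes were found and 8 tested. Of these, slc5a5, the sodium-iodide symporter, and dio1, a deiodinase, passed an adjusted p of 0.05 by edgeR as higher in pax2a-high libraries. Over all genes tested, 2.58% passed in either direction. The summed level of that list was 158391 to 240646 CPM across pax2a-high libraries, against 3602 to 32752 CPM in pax2a-low libraries. Of 19 ionocyte markers, 15 were tested and 10 passed as lower in pax2a-high libraries, where the share over all genes was the same 2.58%. The list summed to 295 to 534 CPM across pax2a-high libraries, against 8075 to 10878 CPM in pax2a-low libraries. Most of the pax2a-high sum was atp1a1a.1, which overlapped between the groups. It had 276, 461 and 461 CPM in pax2a-high libraries, against 80.8, 424 and 480 CPM in pax2a-low libraries. The ionocyte regulators foxi3a and gcm2, and ca15a, rhcgb and kcnj1a.5, were at 0 in all 3 pax2a-high libraries. In pax2a-low libraries, foxi3a had 6.94, 26.1 and 0 CPM, gcm2 had 0, 75.9 and 39.0 CPM, and rhcgb had 46.6, 49.6 and 0 CPM. The genes foxi3a, gcm2 and rhcgb thus overlapped between the groups at 0 and were not tested, while ca15a and kcnj1a.5 did not overlap. Of 10 macrophage and leukocyte markers, 5 were tested and none passed. The list summed to 27.5 to 172 CPM across pax2a-high libraries, against 592 to 1460 CPM in pax2a-low libraries. In every pax2a-low library, cd74a, cd74b and mpeg1.2 gave most of this sum. Their means were lower in pax2a-high libraries, as were those of spi1b, marco and mfap4. Means of ptprc, lcp1, coro1a and mpeg1.1 were higher there. Of these, lcp1 had 0.488, 1.21 and 1.71 CPM in pax2a-high libraries, against 0 in all 3 pax2a-low libraries, and the others overlapped between the groups. The 5 neuron markers summed to 27.5 to 92.9 CPM across pax2a-high libraries, against 0 to 5.71 CPM across pax2a-low libraries, with 1 tested and none passing. Most of this sum was syt1a, with 38.2, 87.7 and 23.2 CPM in pax2a-high libraries, against 0, 5.71 and 0 CPM in pax2a-low libraries. The marker elavl4 had no count in any library. The markers elavl3, snap25a and snap25b were at 0 in some pax2a-high libraries and in every pax2a-low library. Keratinocyte markers, 6 in number, summed to 269.9 to 1588 CPM across pax2a-high libraries, against 865 to 3567 CPM across pax2a-low libraries, and none of the 6 passed. In such bulk samples, fewer cells of a type and less RNA per cell cannot be told apart.

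Of the 46 members, 45 had at least 1 count, and 29 passed the filter on low counts and were tested: 8 in SLC4, 8 in SLC9, 7 in SLC12 and 6 in SLC26. No member passed an adjusted p of 0.05 in edgeR's quasi-likelihood test, 0 higher and 0 lower, where 2.58% of all 12524 genes tested passed. At an unadjusted p under 0.05, 2 members were higher (slc4a1a and slc4a2b), against 9.76% of all genes tested, and 2 were lower (slc12a10.2 and slc12a2), against 4.60%. DESeq2 called 4 members, slc4a1a higher and slc9a2, slc4a1b and slc26a1 lower, where it called 9.59% of all genes it adjusted; limma called 0 higher and 0 lower. In 8 of the 45 members with a count (17.8%) the pax2a-high libraries all lay above the pax2a-low libraries, against 13.3% of all rows with a count. In 3 members (6.67%) they all lay below, against 4.59% of all rows.

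By family, the log2 fold change (pax2a-high minus pax2a-low) was positive for 6 and negative for 2 of the 8 tested SLC4 members, with a median of 1.58. In SLC9 the signs were 6 positive and 2 negative, with a median of 0.35, and in SLC26 they were 3 and 3, with a median of -0.18. In SLC12, 2 were positive and 5 negative, with a median of -1.86. The median over all genes tested was 0.354. Differences between families were not tested.

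**Figure D1:**
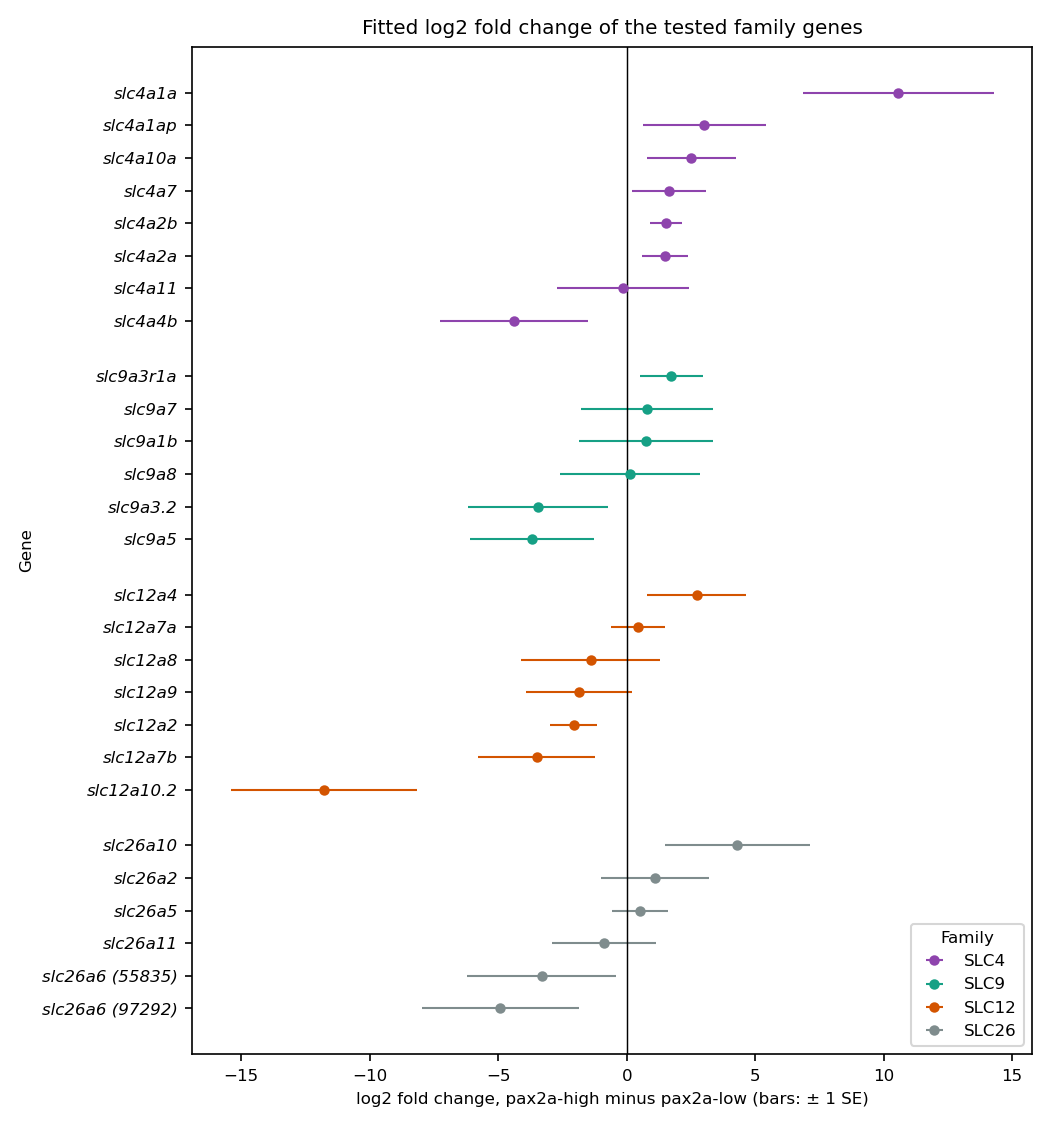
Fitted log2 fold change, pax2a-high minus pax2a-low, of 27 tested members on the x axis, 1 row per gene, grouped and coloured by family; bars are ± 1 SE. Numbers in brackets are the last digits of the gene ID of the 2 slc26a6 rows. The bars of SLC4 genes lie mostly right of 0 and those of SLC12 genes mostly left of it, and most are wide: none of these genes passed the adjusted p.

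In SLC4, the genes of the widely expressed chloride-bicarbonate exchanger lay in a narrow range in pax2a-high libraries. The exchanger gene slc4a2b (ENSDARG00000052330), 1 of 2 zebrafish copies of the anion exchanger AE2, had 227, 237 and 217 CPM in pax2a-high libraries, against 126, 34.4 and 76.7 CPM in pax2a-low libraries. The groups did not overlap, and pax2a-low 2 was the lowest library. Its means were 227 ± 10.19 CPM across pax2a-high libraries, against 78.9 ± 45.7 CPM in pax2a-low libraries (SD, n = 3 each), a log2 fold change of 1.53 ± 0.61 (SE), whose adjusted p by edgeR was 0.218. Its copy slc4a2a (ENSDARG00000028173) had 145, 174 and 201 CPM in pax2a-high libraries, against 111, 2.98 and 70.6 CPM in pax2a-low libraries. Here too the groups did not overlap and pax2a-low 2 was lowest, with means of 173 ± 27.8 CPM across pax2a-high libraries, against 61.7 ± 54.8 CPM in pax2a-low libraries (SD, n = 3 each) and a log2 fold change of 1.49 ± 0.88 (SE, adjusted p = 0.542 by edgeR), which was 2.25 without pax2a-low 1 and 0.89 without pax2a-low 2. Of the reads on the pair, slc4a2a took 39.0%, 42.3% and 48.0% in pax2a-high libraries, against 47.0%, 7.97% and 47.9% in pax2a-low libraries. The share thus lay between 39.0% and 48.0% in 5 libraries and apart from them in pax2a-low 2.

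The sodium-dependent bicarbonate transporter gene slc4a10a (ENSDARG00000063133), whose mammalian counterpart is known from brain and choroid plexus, had 205, 249 and 214 CPM in pax2a-high libraries, against 0.386, 2.48 and 114 CPM in pax2a-low libraries. All pax2a-high libraries lay above all pax2a-low libraries, and pax2a-low 3, the pax2a-low library with the most pax2a, was also the one with the most slc4a10a. Means were 223 ± 23.2 CPM across pax2a-high libraries, against 38.9 ± 64.9 CPM in pax2a-low libraries (SD, n = 3 each), and the log2 fold change was 2.51 ± 1.73 (SE, adjusted p = 0.691 by edgeR). Without pax2a-low 3 the log2 fold change was 7.20 and the edgeR adjusted p 1.43e-05, in a fit that called 3.09% of all genes. With each of the other libraries left out, the log2 fold change was 1.91 to 2.59 and the edgeR adjusted p 0.309 to 0.726. The second copy, slc4a10b, had no count in any library. The electroneutral sodium-bicarbonate cotransporter gene slc4a7 had 90.1, 89.2 and 24.1 CPM in pax2a-high libraries, against 0, 44.3 and 20.7 CPM in pax2a-low libraries. These groups overlapped, with a log2 fold change of 1.64 ± 1.43 (SE, adjusted p = 0.772 by edgeR), and 2.66 without pax2a-low 2.

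The electrogenic sodium-bicarbonate cotransporter gene slc4a4b (ENSDARG00000044808), which in zebrafish marks the sodium-chloride-absorbing type of ionocyte, had 13.2, 10.1 and 29.9 CPM in pax2a-high libraries, against 0.386, 1107 and 2.34 CPM in pax2a-low libraries. A single library, pax2a-low 2, held nearly all of its pax2a-low reads, and the other pax2a-low libraries lay below all pax2a-high ones. The log2 fold change was -4.38 ± 2.88 (SE, adjusted p = 0.689 by edgeR), and without pax2a-low 2 it was 3.64. In the same library the second copy, slc4a4a, had 41.8 CPM, while it had 0, 0.304 and 7.86 CPM in pax2a-high libraries and 0 in the other pax2a-low libraries.

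The copies of the band 3 exchanger gene, which exchanges chloride for bicarbonate in red blood cells, were found in opposite groups. The copy slc4a1a (ENSDARG00000012881) had 14.4, 9.16 and 11.3 CPM in pax2a-high libraries (236, 181 and 403 counts), against 0 in all 3 pax2a-low libraries. Against a floor of 3 counts in each library, taken as the group mean, it was at least 29.45-fold higher in pax2a-high libraries. Its edgeR adjusted p was 0.185 (unadjusted 0.0132), and DESeq2 gave an adjusted p of 0.00166, so the call depends on the tool. The copy slc4a1b (ENSDARG00000024560), which in zebrafish belongs to the proton-secreting type of ionocyte, had 0 in all 3 pax2a-high libraries, against 2.31, 12.8 and 0 CPM in pax2a-low libraries. By the same floor its mean was at least 36.01-fold lower in pax2a-high libraries, a bound resting mostly on pax2a-low 2, and the groups overlapped at 0. This copy did not pass the edgeR filter, and DESeq2 gave an adjusted p of 0.0304. No library had counts of both copies. The erythrocyte marker list, 9 rows with slc4a1a among them, summed to 14.4, 27.9 and 32.8 CPM in pax2a-high libraries, against 0.386, 8.19 and 47.7 CPM in pax2a-low libraries. In pax2a-high 1, slc4a1a was the only row of that list with a count, and globin rows had none in pax2a-high 1 and 2 or in pax2a-low 1 and 2. The row epb41b had 0, 16.2 and 8.34 CPM in pax2a-high libraries, against 0 in all 3 pax2a-low libraries. The row alas2 had 0, 2.53 and 2.67 CPM in pax2a-high libraries, against 0.386, 8.19 and 3.27 CPM in pax2a-low libraries.

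The partner protein gene slc4a1ap (ENSDARG00000034160), whose mammalian product was named for binding the band 3 exchanger, had 30.0, 16.1 and 36.4 CPM in pax2a-high libraries, against 0, 10.17 and 0 CPM in pax2a-low libraries. The groups did not overlap, and 2 of the 3 pax2a-low libraries had no count. The log2 fold change was 3.02 ± 2.4 (SE, adjusted p = 0.737 by edgeR). It was 11.94 without pax2a-low 2 and 2.41 to 3.34 with each of the other libraries left out.

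**Figure D2:**
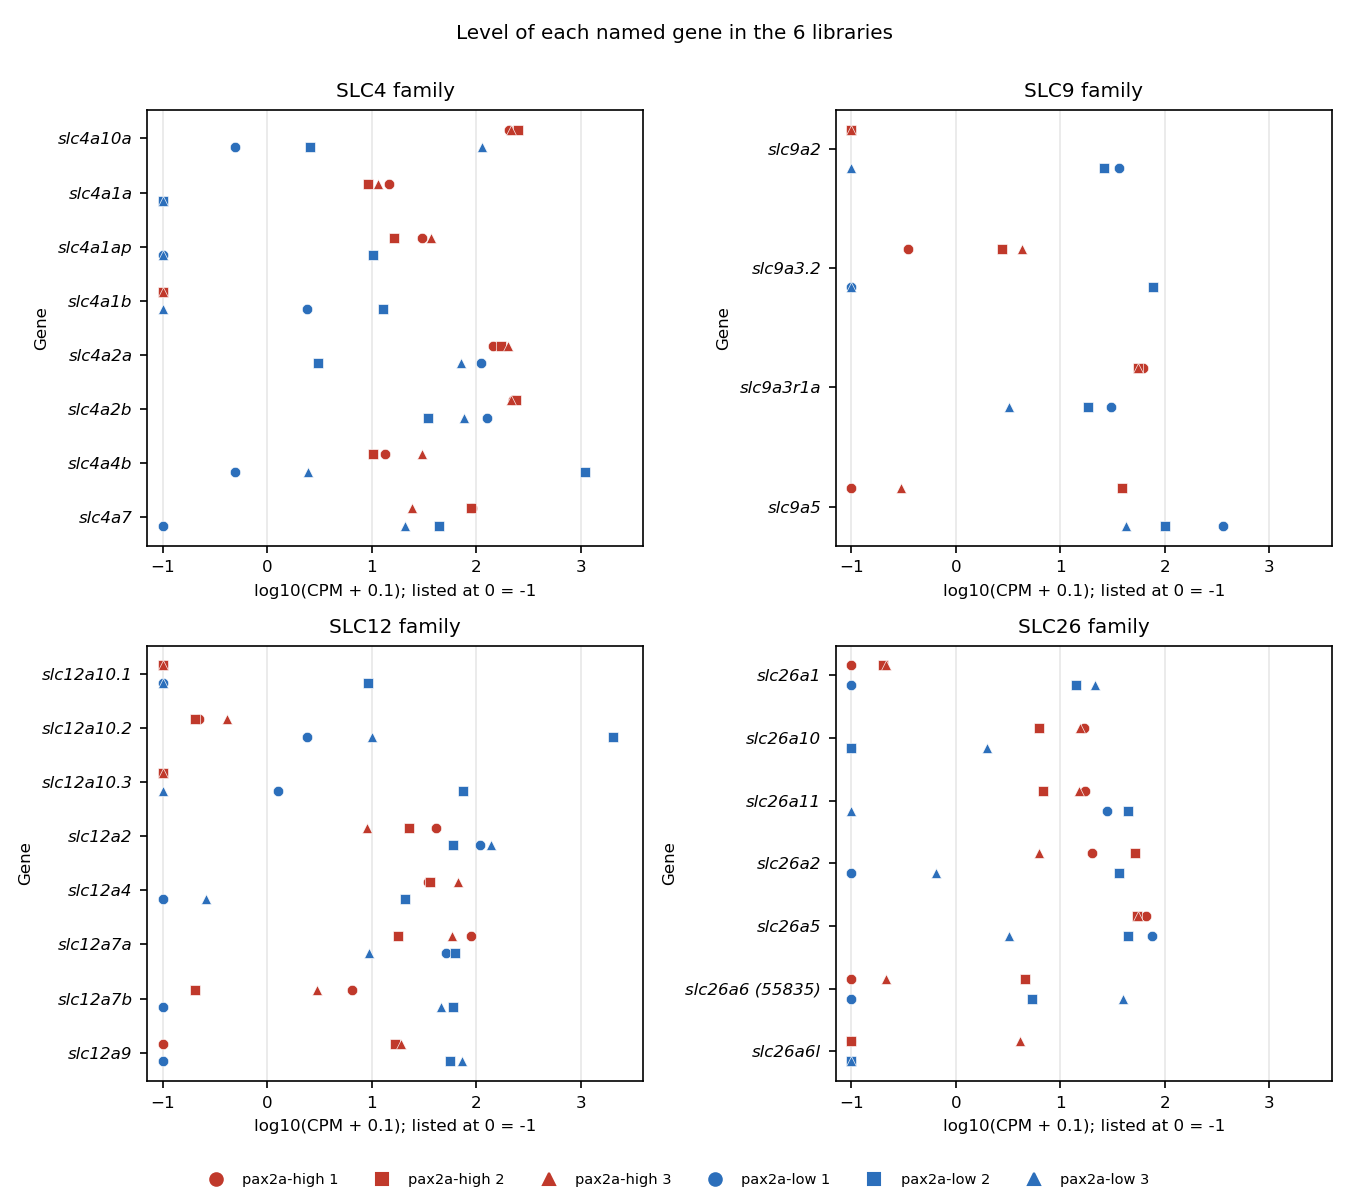
Level of each of the 27 genes named by rule in each library, as log10(CPM + 0.1), where -1 is a gene listed at 0; red points above are pax2a-high and blue points below are pax2a-low libraries, with circle, square and triangle for libraries 1, 2 and 3. The red points of slc4a2a, slc4a2b and slc4a10a lie close together between 145 and 249 CPM, while the blue points spread and pax2a-low 2 lies far to the right for slc4a4b and slc12a10.2.

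In SLC9, the groups did not overlap for 1 transporter gene. That gene, slc9a5 (ENSDARG00000078560), whose mammalian counterpart is a sodium-proton exchanger of neurons, had 0, 38.6 and 0.197 CPM in pax2a-high libraries, against 359, 99.998 and 42.1 CPM in pax2a-low libraries. All pax2a-high libraries lay below all pax2a-low libraries, by a narrow margin between pax2a-high 2 and pax2a-low 3. Means were 12.9 ± 22.3 CPM across pax2a-high libraries, against 167 ± 169 CPM in pax2a-low libraries (SD, n = 3 each), and the log2 fold change was -3.69 ± 2.41 (SE, adjusted p = 0.668 by edgeR). Without pax2a-high 2 it was -10.44 with an edgeR adjusted p of 6.32e-10, in a fit that called 3.17% of all genes. Without pax2a-low 1 it was -2.42 (edgeR adjusted p = 0.797), and it was -4.24 to -3.08 with each of the other libraries left out.

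The gene slc9a2, an epithelial sodium-proton exchanger of the mammalian gut, had 0 in all 3 pax2a-high libraries, against 36.6, 26.2 and 0 CPM in pax2a-low libraries. It was at least 149.8-fold lower in pax2a-high libraries, a bound set by the floor of 3 counts, and the libraries without it included pax2a-low 3. It did not pass the edgeR filter with 6 libraries, and DESeq2 gave an adjusted p of 0.00442. It was tested in 4 edgeR fits with 1 library left out. Their adjusted p ran from 0.0343 (without pax2a-low 3) to 0.314. It passed their filter only through its pax2a-low reads, and pax2a-low 3 was the pax2a-low library at 0. These values are therefore no support for a difference. The gene slc9a3.2 (ENSDARG00000036722), the apical sodium-proton exchanger of zebrafish proton-secreting ionocytes, had 0.244, 2.63 and 4.16 CPM in pax2a-high libraries, against 0, 77.2 and 0 CPM in pax2a-low libraries. Again the reads of the pax2a-low group came from pax2a-low 2 alone. The log2 fold change was -3.45 ± 2.73 (SE, adjusted p = 0.735 by edgeR), and without pax2a-low 2 it was 8.39. The nearby copy slc9a3.1 had 0, 9.31 and 1.52 CPM in pax2a-high libraries, against 0, 0 and 0.312 CPM in pax2a-low libraries.

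Exchangers of the Golgi spread widely between libraries of either group: the trans-Golgi exchanger gene slc9a7 had 0.122, 2.43 and 13.1 CPM in pax2a-high libraries, against 0, 5.46 and 3.58 CPM in pax2a-low libraries. The Golgi exchanger gene slc9a8 had 0.366, 2.63 and 13.7 CPM in pax2a-high libraries, against 0, 15.1 and 0 CPM in pax2a-low libraries.

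The partner protein gene slc9a3r1a (ENSDARG00000000068) encodes a PDZ scaffold of the NHERF type, which in mammals ties sodium-proton exchangers to ezrin at the apical membrane. It had 62.2, 55.0 and 55.0 CPM in pax2a-high libraries, against 30.5, 18.1 and 3.12 CPM in pax2a-low libraries. The groups did not overlap, with means of 57.4 ± 4.13 CPM across pax2a-high libraries, against 17.2 ± 13.7 CPM in pax2a-low libraries (SD, n = 3 each) and a log2 fold change of 1.74 ± 1.21 (SE, adjusted p = 0.665 by edgeR).

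**Figure D3:**
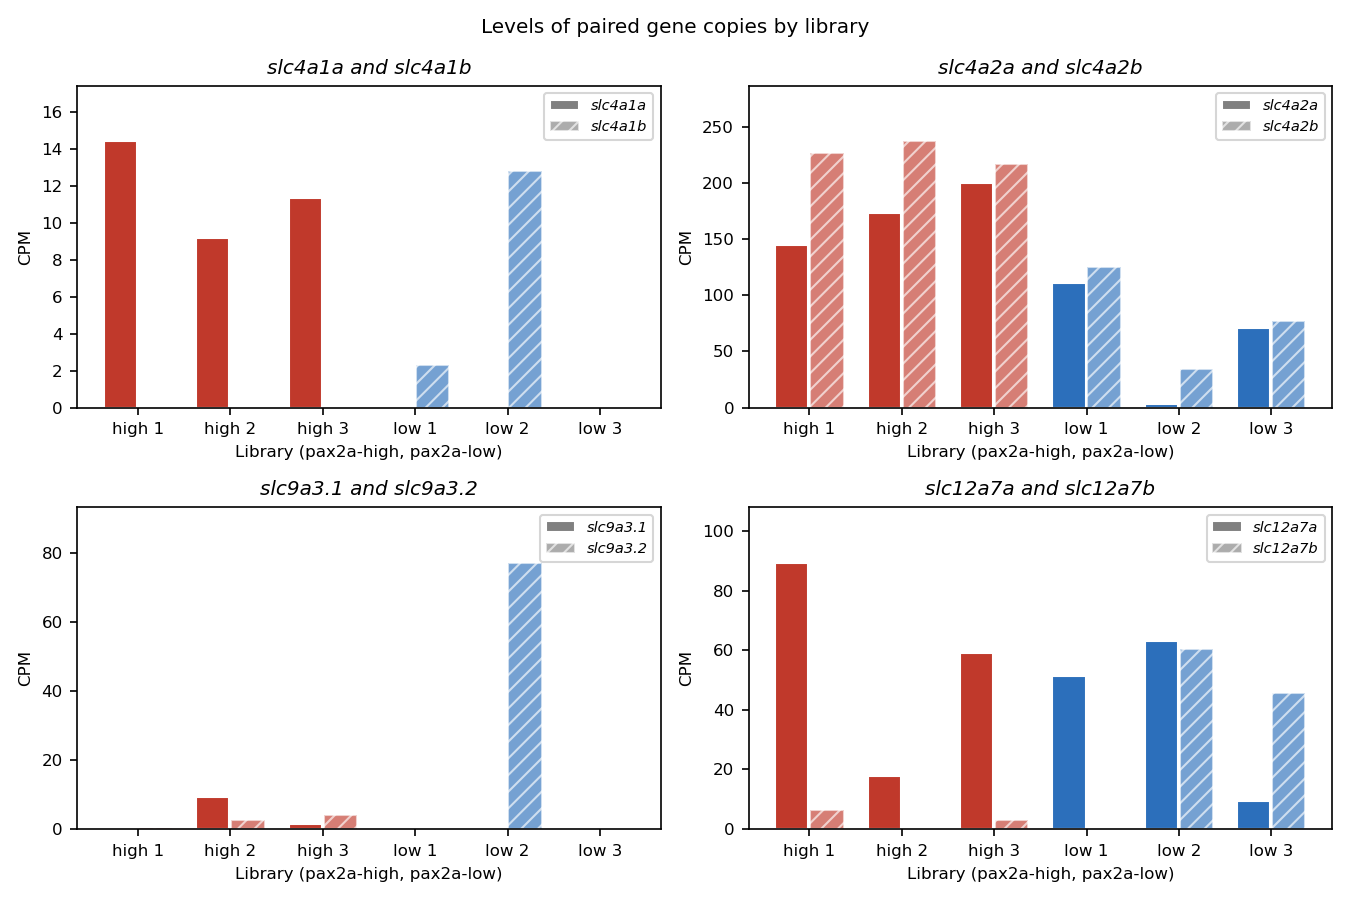
CPM of 4 pairs of gene copies in each library, with plain bars for the first copy and hatched bars for the second, red for pax2a-high and blue for pax2a-low libraries. CPM is not scaled by gene length, so bars of 1 copy are to be read across libraries: slc4a1a has bars in the pax2a-high libraries and slc4a1b in pax2a-low 1 and 2, and slc9a3.2 reaches 77.2 CPM in pax2a-low 2.

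In SLC12, 2 genes of cotransporters that bring chloride into the cell had pax2a-high levels below those of every pax2a-low library, neither past the threshold. The gene slc12a10.2 (ENSDARG00000071173), the sodium-chloride cotransporter of zebrafish salt-absorbing ionocytes, had 0.122, 0.101 and 0.309 CPM in pax2a-high libraries (2, 2 and 11 counts), against 2.31, 2047 and 10.1 CPM in pax2a-low libraries (12, 16500 and 129 counts). The groups did not overlap, but the pax2a-low libraries differed among themselves by far more than the groups' nearest libraries did. The log2 fold change was -11.80 ± 3.62 (SE, edgeR unadjusted p = 0.0235, adjusted p = 0.218), and without pax2a-low 2 it was -5.10 (edgeR adjusted p = 0.297). The nearby copies slc12a10.3 and slc12a10.1 were at 0 in all 3 pax2a-high libraries. In the pax2a-low libraries slc12a10.3 had 1.16, 74.2 and 0 CPM and slc12a10.1 had 0, 9.18 and 0 CPM. By the floor of 3 counts their means were at least 179.8-fold and at least 21.9-fold lower in pax2a-high libraries, bounds carried by pax2a-low 2. Both genes overlapped between the groups at 0, and neither passed the filter with 6 libraries. With 1 library left out, slc12a10.3 was tested in 4 edgeR fits. Their adjusted p ran from 0.0284 (without pax2a-low 3) to 0.258. Here too the gene passed the filter only through its pax2a-low reads, and pax2a-low 3 was its pax2a-low library at 0. These values are therefore no support for a difference.

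The gene slc12a2 (ENSDARG00000104573), a sodium-potassium-chloride cotransporter of the basolateral membrane of secretory epithelia, had 41.4, 22.5 and 8.98 CPM in pax2a-high libraries, against 109, 59.7 and 138 CPM in pax2a-low libraries. The groups did not overlap, and with each library left out in turn the log2 fold change stayed between -2.67 and -1.70. Means were 24.3 ± 16.3 CPM across pax2a-high libraries, against 102 ± 39.5 CPM in pax2a-low libraries (SD, n = 3 each), a log2 fold change of -2.07 ± 0.90 (SE, edgeR unadjusted p = 0.035, adjusted p = 0.278).

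Potassium-chloride cotransporters carry chloride out of the cell. The gene slc12a4 (ENSDARG00000014378), the widely expressed member of this group, had 34.3, 36.3 and 66.8 CPM in pax2a-high libraries, against 0, 20.6 and 0.156 CPM in pax2a-low libraries. The groups did not overlap, with means of 45.8 ± 18.2 CPM across pax2a-high libraries, against 6.92 ± 11.8 CPM in pax2a-low libraries (SD, n = 3 each). The log2 fold change was 2.72 ± 1.93 (SE, adjusted p = 0.674 by edgeR). It was 8.79 without pax2a-low 2 (edgeR adjusted p = 0.0959) and 2.12 to 2.94 with each of the other libraries left out. The copies of slc12a7, an epithelial member, overlapped between the groups. The copy slc12a7a had 89.3, 17.8 and 59.1 CPM in pax2a-high libraries, against 51.3, 63.0 and 9.27 CPM in pax2a-low libraries (log2 fold change 0.43 ± 1.06 SE, adjusted p = 0.958 by edgeR). That value was -0.06 without pax2a-high 1, -0.09 without pax2a-low 3 and 0.89 without pax2a-high 2. The copy slc12a7b had 6.35, 0.101 and 2.92 CPM in pax2a-high libraries, against 0, 60.3 and 45.7 CPM in pax2a-low libraries (log2 fold change -3.50 ± 2.28 SE, adjusted p = 0.62 by edgeR). Of the reads on both copies, slc12a7a took 93.4%, 99.4% and 95.3% in pax2a-high libraries, against 100%, 51.1% and 16.9% in pax2a-low libraries. The share was thus lower in pax2a-low 2 and 3 than in all pax2a-high libraries, but not in pax2a-low 1.

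The gene slc12a9, known in mammals as a protein that interacts with the chloride cotransporters, had 0, 16.5 and 19.0 CPM in pax2a-high libraries, against 0, 55.7 and 72.8 CPM in pax2a-low libraries. Each group held a library without a count, and the log2 fold change was -1.86 ± 2.05 (SE, adjusted p = 0.847 by edgeR), and -1.24 without pax2a-high 1. The gene slc12a5a, whose mammalian counterpart is the potassium-chloride cotransporter of neurons, had 174, 0 and 7 counts in pax2a-high libraries, against 0, 2 and 0 counts in pax2a-low libraries. Over pooled counts the ratio was 32.9 (95% exact interval from counting error, with counts taken as independent, 8.97 to 274). In this ratio 1 pax2a-high library gave most of the reads.

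In SLC26, the multifunctional anion exchangers, levels overlapped for most members. The gene slc26a5 (ENSDARG00000022424), whose mammalian product is the motor protein prestin of outer hair cells, had 66.2, 54.0 and 55.8 CPM in pax2a-high libraries, against 75.2, 44.2 and 3.12 CPM in pax2a-low libraries. The pax2a-high libraries lay within the range of the pax2a-low libraries, with a log2 fold change of 0.52 ± 1.08 (SE, adjusted p = 0.945 by edgeR) that was -0.09 without pax2a-low 3 and 1.36 without pax2a-low 1. The gene slc26a10 (ENSDARG00000078800) was the only SLC26 member whose groups did not overlap, with 16.9, 6.07 and 15.2 CPM in pax2a-high libraries, against 0, 0 and 1.87 CPM in pax2a-low libraries. Its log2 fold change was 4.30 ± 2.82 (SE, adjusted p = 0.621 by edgeR). That value was 10.75 without pax2a-low 3 and 3.68 to 4.67 with each of the other libraries left out.

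Among genes of sulfate carriers, slc26a2 and slc26a11 had fitted changes of opposite sign, neither past the threshold. The gene slc26a2, the sulfate transporter that cartilage depends on in mammals, had 19.9, 52.2 and 6.21 CPM in pax2a-high libraries, against 0, 35.98 and 0.545 CPM in pax2a-low libraries (log2 fold change 1.1 ± 2.1 SE, adjusted p = 0.936 by edgeR). Its log2 fold change ran from 0.14 (without pax2a-high 2) to 6.40 (without pax2a-low 2) with libraries left out. The gene slc26a11, another sulfate carrier, had 17.1, 6.68 and 14.9 CPM in pax2a-high libraries, against 27.8, 43.8 and 0 CPM in pax2a-low libraries (log2 fold change -0.89 ± 2.03 SE, adjusted p = 0.952 by edgeR, and -0.12 without pax2a-low 2 to -1.52 without pax2a-low 3). Both genes overlapped between the groups. The gene slc26a1, a sulfate and oxalate exchanger, had 0, 0.101 and 0.112 CPM in pax2a-high libraries, against 0, 14.1 and 21.2 CPM in pax2a-low libraries. Its groups overlapped at 0; it did not pass the edgeR filter, and DESeq2 gave an adjusted p of 0.0172.

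The chloride-oxalate-bicarbonate exchanger slc26a6 has 2 rows. In the RefSeq order of genes (assembly GRCz12tu), slc26a6.1 and slc26a6.2 lie next to each other, but the rows were not matched to these symbols. The row ENSDARG00000055835 had 0, 4.45 and 0.112 CPM in pax2a-high libraries, against 0, 5.21 and 40.0 CPM in pax2a-low libraries (log2 fold change -3.31 ± 2.89 SE, adjusted p = 0.775 by edgeR). The row ENSDARG00000097292 had 0, 0.304 and 0.786 CPM in pax2a-high libraries, against 18.5, 0 and 15.4 CPM in pax2a-low libraries (log2 fold change -4.92 ± 3.05 SE, adjusted p = 0.579 by edgeR). Both rows overlapped between the groups. Of the pax2a-low counts of ENSDARG00000055835, 514 of 556 were in pax2a-low 3. For ENSDARG00000097292, 198 of 294 were in that library, but its CPM was highest in pax2a-low 1, a library with a smaller total. With each library left out in turn, the log2 fold change of ENSDARG00000055835 ran from -7.78 (without pax2a-high 2) to -0.82 (without pax2a-low 3). That of ENSDARG00000097292 ran from -6.16 to -4.33. The gene slc26a6l had 0, 0 and 3.99 CPM in pax2a-high libraries, against 0 in all 3 pax2a-low libraries, which is at least 3.37-fold higher by the floor of 3 counts and rests on pax2a-high 3. How reads that match several genes were counted is not given in the sources used here, so the split between near copies, and between slc12a10, slc9a3, slc26a3 and slc26a6 rows, which in that assembly lie next to each other or with 1 gene between them, is uncertain.

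Other members, 13 with slc9a7 and slc9a8 among them, had group means of at most 5.56 CPM across pax2a-high libraries, against at most 5.56 CPM in pax2a-low libraries. Of these, 5 were tested, with log2 fold changes between -1.41 and 0.79 and edgeR adjusted p values between 0.937 and 0.997. These rest on single libraries: with 1 library left out, slc9a8 ran from -1.73 to 9.63, slc12a8 from -2.62 to 8.15, slc9a1b from 0.05 to 7.39, slc4a11 from -5.48 to 1.59 and slc9a7 from -1.24 to 1.47. The genes slc4a4a, slc9a7, slc9a8, slc9a3.1, slc12a5a and the second slc26a6 row were named after their values were seen.

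Summed over members, the families stood as follows. SLC4 reached 725, 789.9 and 741 CPM in pax2a-high libraries, against 240.4, 1261 and 285 CPM in pax2a-low libraries. In pax2a-low 2, slc4a4b took 87.9% of the SLC4 sum. SLC9 reached 111, 155 and 136 CPM in pax2a-high libraries, against 431, 279 and 133 CPM in pax2a-low libraries, with slc9a5 taking 83.3% of the sum in pax2a-low 1. SLC12 reached 183, 94.4 and 167 CPM in pax2a-high libraries, against 164, 2391 and 296 CPM in pax2a-low libraries, and slc12a10.2 took 85.6% of the sum in pax2a-low 2. SLC26 reached 120.1, 124 and 98.2 CPM in pax2a-high libraries, against 121, 143 and 82.2 CPM in pax2a-low libraries. With all members counted, the groups overlapped in every family, and the pax2a-low libraries spread more widely than the pax2a-high libraries in all 4. The SLC9 sum includes the scaffold gene slc9a3r1a, which took 35.5% to 55.9% of it in pax2a-high libraries. The SLC9 transporter genes alone reached 49.0, 99.8 and 81.1 CPM in pax2a-high libraries, against 401, 261 and 130.04 CPM in pax2a-low libraries, and did not overlap. This sum was not tested and leans on slc9a5, which took 89.6% of it in pax2a-low 1 and 38.4% in pax2a-low 2, against 38.7% in pax2a-high 2. Of the 7 tested SLC9 transporter genes, 5 had a positive and 2 a negative log2 fold change, with a median of 0.14.

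**Figure D4:**
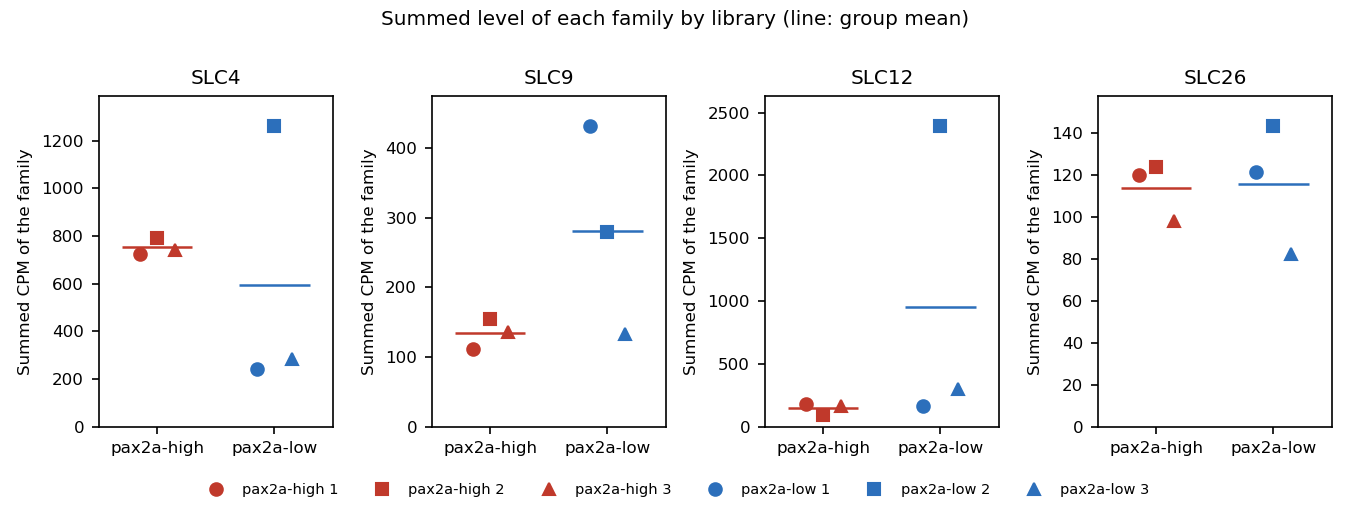
Summed CPM of each family in each library on the y axis, which starts at 0 and has its own scale in each panel, with pax2a-high libraries in red and pax2a-low libraries in blue; lines are group means. The pax2a-high libraries lie at 725 to 789.9 CPM for SLC4 and 94.4 to 183 CPM for SLC12, while pax2a-low 2 lies at 1261 CPM for SLC4 and 2391 CPM for SLC12.

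All members together summed to 1139, 1163 and 1143 CPM in pax2a-high libraries (mean 1148 ± 12.7 SD, n = 3), against 957, 4073 and 797 CPM in pax2a-low libraries (mean 1942 ± 1847 SD, n = 3). In pax2a-low 2, slc12a10.2 and slc4a4b together took 77.4% of the sum. Without these 2 genes, a comparison added after their values were seen, the sums were 1126, 1153 and 1112.5 CPM in pax2a-high libraries, against 954, 919 and 784 CPM in pax2a-low libraries. Members with a count numbered 25, 33 and 39 in pax2a-high libraries, against 17, 32 and 28 in pax2a-low libraries. With every library thinned to the total of the shallowest, the numbers were 24, 33 and 37 in pax2a-high, against 17, 32 and 28 in pax2a-low libraries. These totals include mitochondrial rows, which took a larger share in pax2a-low libraries. Depth for the other genes therefore stayed lower there after thinning.

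The library that held the reads of slc12a10.2 and slc4a4b also held those of clcn2c, a chloride channel of the same zebrafish ionocyte type. The gene clcn2c had 0, 0 and 0.0562 CPM in pax2a-high libraries, against 0.386, 703 and 0.156 CPM in pax2a-low libraries. Among pax2a-low libraries, trpv6 (87.9, 483 and 177 CPM) and atp1a1a.3 (36.6, 608 and 41.0 CPM) were also highest in pax2a-low 2. So were the keratinocyte marker krt5 (300, 1634 and 210 CPM) and the leukocyte marker cd74a (404, 858 and 448 CPM). Other ionocyte markers, atp1a1a.2 (3805, 1630 and 4808 CPM) and all kcnj1a rows, were lowest there. Of the 19 ionocyte markers, 8, 8 and 14 had a count in pax2a-high libraries, against 18, 19 and 17 in pax2a-low libraries. Those without a count were gcm2 in pax2a-low 1, and foxi3a and rhcgb in pax2a-low 3. The ionocyte regulator foxi3b had 0, 0 and 0.112 CPM in pax2a-high libraries, against 334, 438 and 258 CPM in pax2a-low libraries. The sodium pump subunit gene atp1b1b likewise had 0.101 to 0.122 CPM in pax2a-high libraries, against 2226 to 2930 CPM in pax2a-low libraries. Among pax2a-low libraries, 5 of the 8 tested thyroid genes (tg, tshr, pax8, nkx2.4b and duox) had their highest level in pax2a-low 3, as slc4a10a did. The other genes, slc5a5, hhex and dio1, did not: slc5a5 had 14.1, 2.98 and 6.23 CPM, hhex 4.63, 13.2 and 1.40 CPM, and dio1 0, 4.22 and 1.71 CPM in pax2a-low libraries. The thyrotropin receptor gene tshr had 227, 197 and 348 CPM in pax2a-high libraries, against 0, 6.203 and 48.6 CPM in pax2a-low libraries. The part of other cell types in the exchanger levels was not tested.

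**Figure D5:**
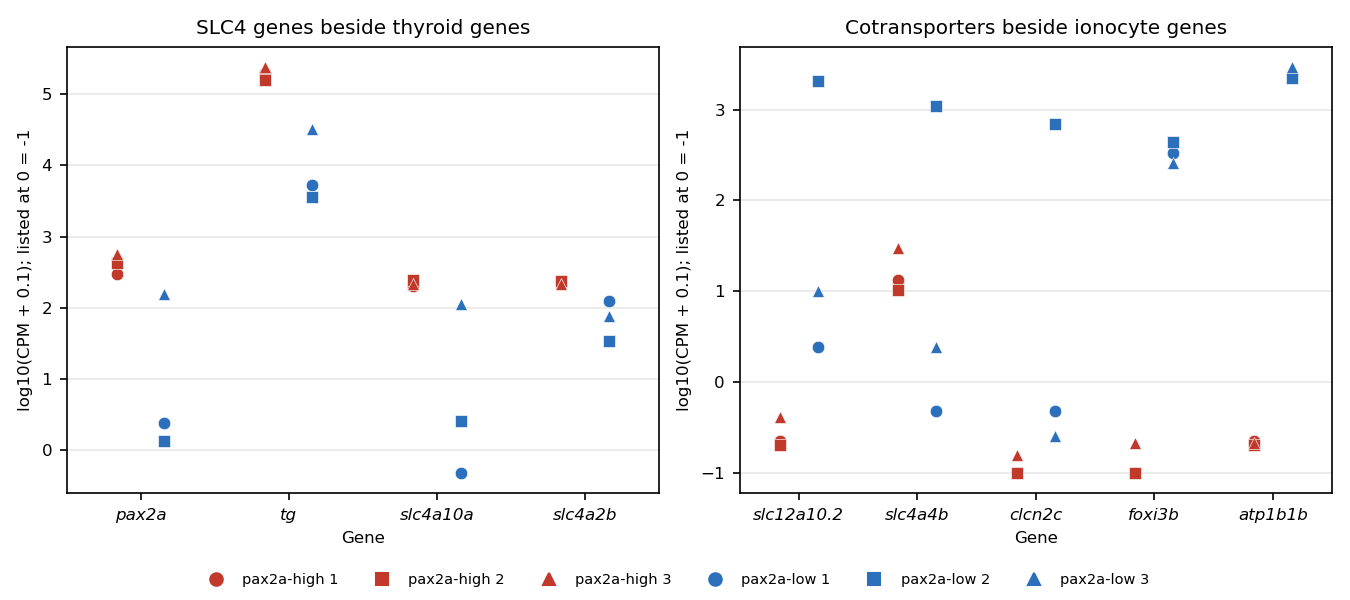
Level of exchanger genes beside cell type genes in each library, as log10(CPM + 0.1), where -1 is a gene listed at 0; red points are pax2a-high and blue points pax2a-low libraries, with circle, square and triangle for libraries 1, 2 and 3. On the left, pax2a and slc4a10a both have their highest blue point in pax2a-low 3; on the right, slc12a10.2, slc4a4b and clcn2c all have it in pax2a-low 2, while foxi3b and atp1b1b are high in every pax2a-low library.

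The genes that work round the exchangers were taken as 3 lists. Of the WNK kinase pathway, which phosphorylates SLC12 cotransporters, 16 of 17 genes were found and 15 tested, with 0 higher and 0 lower by edgeR (1 higher and 1 lower at an unadjusted p under 0.05, against 9.76% and 4.60% of all genes) and a median log2 fold change of 0.11. The members behind these counts, a wnk3 row (listed as si:dkey-151g10.3) and stk39, were named after their values were seen. The wnk3 row, a WNK kinase gene, had 103, 76.4 and 98.2 CPM in pax2a-high libraries, against 1.16, 8.68 and 0.156 CPM in pax2a-low libraries, without overlap (log2 fold change 4.79 ± 1.39 SE, adjusted p = 0.0897 by edgeR). The gene stk39, of the SPAK kinase that phosphorylates these cotransporters, had 0.0611, 1.72 and 6.35 CPM in pax2a-high libraries, against 175, 57.4 and 26.5 CPM in pax2a-low libraries, without overlap (log2 fold change -4.98 ± 1.52 SE, adjusted p = 0.112 by edgeR). Of the scaffolds and cofactors, 16 of 22 names were found and 15 rows tested, with 0 higher and 0 lower by edgeR and a median of -0.90. The names not found included those of NHERF scaffolds, and the NHERF-type gene slc9a3r1a, described above, was not counted in this list. At an unadjusted p under 0.05, 1 was higher (a calm3a row) and 4 were lower (ahcyl1, calm2a, calm1a and ezra), against 9.76% and 4.60% of all genes; these were named after their values were seen. The gene ahcyl1, whose product IRBIT activates sodium-bicarbonate cotransporters in mammals, had 14.9, 36.3 and 44.4 CPM in pax2a-high libraries, against 164, 284 and 112 CPM in pax2a-low libraries, without overlap (log2 fold change -2.55 ± 0.71 SE, adjusted p = 0.0761 by edgeR). The calmodulin genes, which encode a calcium sensor, lay on both sides: log2 fold changes were -1.81 for calm1a, -3.34 for calm2a and 1.04 for the calm3a row. The ezrin genes, which link membrane proteins to actin, differed as well. The copy ezra had 0.244, 0.202 and 0.393 CPM in pax2a-high libraries, against 60.1, 40.7 and 18.5 CPM in pax2a-low libraries, without overlap (log2 fold change -7.10 ± 2.15 SE, adjusted p = 0.109 by edgeR). The copy ezrb had 284, 308 and 173 CPM in pax2a-high libraries, against 152, 304 and 101 CPM in pax2a-low libraries, with overlap (log2 fold change 0.46 ± 0.55 SE, adjusted p = 0.868 by edgeR).

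Of the proton and bicarbonate partners (carbonic anhydrases, proton pump subunits and ammonia channels), 17 of 18 genes were found and 6 tested. Of these, 0 were higher and 3 were lower in pax2a-high libraries, where 2.58% of all genes tested passed in either direction, and all 3 were at 0 in every pax2a-high library. The others tested did not pass: the log2 fold change was 1.34 for the carbonic anhydrase gene ca5a, -0.67 for the proton pump gene atp6v1aa and -1.02 for the proton pump gene atp6v1ba. The median of the 6 was -7.24, which falls in the gap between these and the called genes. The ammonia channel gene rhbg had 300, 195 and 93.2 CPM in pax2a-low libraries, so it was at least 1402-fold lower in pax2a-high libraries (edgeR adjusted p = 1.24e-05). The ammonia channel gene rhcga had 70.9, 118 and 71.5 CPM in pax2a-low libraries, at least 622-fold lower in pax2a-high libraries (edgeR adjusted p = 0.000796). The carbonic anhydrase gene ca15a, also on the ionocyte list, had 171, 106 and 14.5 CPM in pax2a-low libraries, at least 696-fold lower in pax2a-high libraries (edgeR adjusted p = 0.000991). These bounds use the floor of 3 counts in each library, taken as the group mean.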

How the data were processed

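The authors deposited 1 table of raw counts, whole numbers for each gene in 6 libraries. Per the submitters' processing notes, HISAT2 placed reads on GRCz11 and featureCounts counted them; versions, strand setting and treatment of reads matching several genes are not given in the sources used here. Between 67.75% and 88.95% of the counts above 0 in a library were even numbers. Floors of 3 counts and the exact interval take counts as independent, which so many even numbers put in doubt. Fold bounds may therefore be too high and the interval too narrow. Which genes lie near each other was read from RefSeq (assembly GRCz12tu), and no coordinates are given.

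Members and gene lists were chosen with earlier results of these data known. All genes were fitted together in R 4.3.3 by the robust quasi-likelihood F test of edgeR 4.0.16, after filterByExpr and TMM scaling and with group as the only term, with Benjamini-Hochberg adjustment over 12524 genes tested and a threshold of 0.05. The SE is the absolute log2 fold change divided by the square root of F. CPM uses TMM-scaled library sizes and no gene length, so levels are not compared between genes. Totals of 6053741 to 35403210 counts set the precision. Code was tested on simulated data.

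Named in full were members past the threshold, the 6 with the highest mean CPM in each family, and those with no count in 1 group and a mean of at least 1 CPM in the other (27 members). Some results are not reported here. Alternatives were DESeq2 1.42.0, limma 3.58.1 voom with quality weights, other scalings, filters and depth, a replicate block, and leaving out each library.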

Additional observations from a re-analysis of the deposited data

How the results depend on the processing

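No member was called with DESeq2 size factors, library sizes without mitochondrial rows, no filter, a minimum of 5 CPM in 3 libraries, limma voom, thinning to the shallowest total, or an adjusted p under 0.01. DESeq2 called 1 higher and 3 lower. Leaving out 1 library gave 0 to 1 higher (slc4a10a without pax2a-low 3) and 0 to 2 lower. Those lower were slc9a5 without pax2a-high 2, and slc9a2 and slc12a10.3 without pax2a-low 3. The genes slc9a2 and slc12a10.3 passed that filter only through their pax2a-low reads, and the library left out was at 0 for both. For the 21 named genes tested, 272 of 288 values over 14 settings kept their direction and side of the threshold, 5 newly passed and 11 changed sign, in 5 genes. None of these genes passed in the main fit, so keeping the side of the threshold means only not passing again. Sizes could still differ widely: log2 fold changes ran from 2.41 to 11.94 for slc4a1ap and from 0.14 to 6.40 for slc26a2. The cause of the changes was not tested. A further 3 values had no adjusted p in DESeq2 (slc4a4b, slc9a3.2 and slc12a10.2) and 3 were not fitted because the gene did not pass the setting's filter. Log2 fold changes that changed sign were, for slc4a4b, 0.03 with limma and -4.99 to 3.64 over single libraries left out; for slc9a3.2, 1.0 with limma and -4.13 to 8.39; for slc26a11, 1.38 with limma. Over libraries left out, slc12a7a ranged over -0.09 to 0.89 and slc26a5 over -0.09 to 1.36. The median log2 fold change of all genes, 0.354, was 0.244 with DESeq2 size factors, 0.919 with no filter, 1.33 without pax2a-low 2, 1.42 with the replicate block and 1.52 with limma. Over the 14 settings the family medians ran from 1.45 to 2.91 for SLC4, -0.62 to 1.82 for SLC9, -2.39 to -0.39 for SLC12 and -0.46 to 1.59 for SLC26. Over all genes, 140 were higher and 183 lower; DESeq2 gave 954 and 499, limma 99 and 277, the fit without pax2a-high 1 40 and 120, without pax2a-low 1 270 and 206, and without pax2a-low 3 247 and 236. The biological coefficient of variation was 1.499, and pax2a-low depth limits what can be said of members near 0.

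Replicate numbers are shared between the groups, but nothing says what a number marks. Deviations of same-numbered libraries correlated at 0.0318, 0.0532 and 0.0789, and each library correlated best with its own number, a hint from the data and not the design. With a replicate block 1 member was called higher (slc4a10a, log2 fold change 5.92, edgeR adjusted p = 3.89e-05) and 1 lower (slc9a5, -7.53, edgeR adjusted p = 0.000583), where 5.49% of all genes were called (425 higher, 263 lower). Under that block slc4a4b was at 2.47, slc9a3.2 at 3.31 and slc26a11 at 0.04.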
